A study of Mus musculus with 21 samples.

Results

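The genes described here serve the unfolded protein response and protein folding in the endoplasmic reticulum (ER). They were taken from a list of 38 symbols, matched by symbol to the rows of the expression table. The rule uses no measured value. The table held 36 of the 38 among its 11628 genes, and all 36 passed the filter of at least 1 RPKM in at least 3 libraries, which kept 11496 genes. Derl3 and Chac1 were not analysed here.

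The libraries came from bone marrow of wild-type mice and of mice homozygous for an Etv6 mutation (genotype ETV6 mt/mt, written P214L in the series' design). Etv6 is a transcriptional repressor of the ETS family, and the mutation is in the germline, so every cell of a mutant mouse carried it. Haematopoietic stem cells (HSC) were sorted as lineage-negative, cKit+, Sca1+, FLK2-negative and CD150+ cells, with CD38-negative also in their label. Multipotent progenitors of type 4 (MPP4), which lean towards the lymphoid lineages, were lineage-negative, cKit+, Sca1+ and FLK2+. The third gate, for common lymphoid progenitors (CLP), took IL7+ Flk2+ lineage-negative cells with low cKit and low Sca1. There were 3 wild-type and 4 mutant libraries of each population, 21 in all, labelled as 10 or 12 weeks old. Replicate 3 of every group and replicate 4 of mutant CLP were labelled 10 weeks, and all others 12 weeks. Libraries numbered 2 came from male mice and all others from female mice, and the sources used here name no strain. A change in the RNA level of Etv6 would not report a point mutation, so the genotype labels could not be checked this way.

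Proteins that enter the secretory pathway are folded in the ER by chaperones and disulfide isomerases, and those that fail are returned to the cytosol for degradation. When folding falls behind, the sensors IRE1 (gene Ern1), PERK (gene Eif2ak3) and ATF6 (gene Atf6) respond. IRE1 splices the messenger RNA of the transcription factor XBP1. PERK slows translation and favours production of the transcription factor ATF4, which acts with CHOP (gene Ddit3). ATF6 is cut and moves to the nucleus, where it raises chaperone genes. Much of this is control of protein, splicing or phosphorylation, which RNA levels of whole genes do not report. Blood stem cells are known for a low rate of protein synthesis and for sensitivity to misfolded protein.

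Short promoter motifs are known to link genes of this kind to the sensors, so the promoters were read first. The list was made of genes of this response, so larger shares than over all genes may follow from that choice. RefSeq promoters of GRCm38.p6, each 250 bases before to 50 bases after a start site, were matched for 30 of the 36 genes by Entrez identifier. Sec61a1, Hyou1, Ssr2, Atf6, Manf and Derl1 were not matched. Both strands were searched for the ER stress response element (ERSE, CCAAT and CCACG with any 9 bases between), which ATF6 and XBP1 are known to use. It was present for 8 of 30 genes (26.7%): Calr, Canx, Creld2, Dnajc3, Hsp90b1, Hspa5, Pdia6 and Syvn1. Of all 9395 genes of the table with a promoter, 16 (0.17%) held it. The shorter ERSE-II (ATTGG and CCACG with any 1 base between) was present for Dnajb11 and Herpud1, 6.67% of the 30 against 0.0852% of the 9395. TGACGTGG, known as the unfolded protein response element, was present for Txndc5 alone of the 30, against 1.04% of the 9395. TGATGNAA, the core of the element that ATF4 with a C/EBP partner binds, was present for Asns, Herpud1, Trib3 and Txndc5, 13.3% of the 30 against 2.67% of the 9395. ERSE and ERSE-II share the letters CCACG and can overlap, and a match of letters is a description, not a bound site.

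The windows below are on GRCm38.p6 and were chosen because their genes carry the population and genotype results that follow. Each lies upstream of the start site and is written 5′ to 3′ along the gene's strand. Capitals mark the letters fixed in the motif, and a motif on the opposite strand reads as its reverse complement.
Hspa5 ERSE, chr2:34772003-34772065, plus strand: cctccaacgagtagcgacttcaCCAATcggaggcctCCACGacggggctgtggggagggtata
Hsp90b1 ERSE, chr10:86705616-86705678, minus strand: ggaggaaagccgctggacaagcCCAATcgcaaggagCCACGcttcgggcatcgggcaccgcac
Hsp90b1 ERSE on the opposite strand, chr10:86705511-86705573, minus strand: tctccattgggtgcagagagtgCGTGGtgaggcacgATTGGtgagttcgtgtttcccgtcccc
Pdia6 ERSE, chr12:17266469-17266531, plus strand: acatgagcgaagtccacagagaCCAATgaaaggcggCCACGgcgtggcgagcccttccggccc
Syvn1 ERSE, chr19:6046510-6046572, plus strand: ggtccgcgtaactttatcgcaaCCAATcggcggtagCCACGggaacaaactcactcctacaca
Herpud1 ERSE-II, chr8:94386355-94386409, plus strand: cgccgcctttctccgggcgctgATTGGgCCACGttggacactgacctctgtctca
Asns ATF4 element, chr6:7693210-7693254, minus strand: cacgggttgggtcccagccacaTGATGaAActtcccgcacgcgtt
The last base of the motif lies 16 bases upstream of the start for Asns, 26 for Syvn1, 42 for Herpud1 and 47 for Hspa5. The 2 Hsp90b1 motifs face opposite ways, with last bases 194 and 89 bases upstream.

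Values are RPKM, which scales a gene's reads by its length and by the library's mapped reads, and differences are of log2(RPKM + 1), which understates the change of low genes. RPKM summed to between 337818 and 376135 per library, and the read depth is unknown. Stem cell and lymphoid progenitor markers followed the labels of the sorted populations. Stem cell markers summed to 1017 to 1100 RPKM in HSC, 278 to 394 in MPP4 and 77.3 to 109 in CLP. Lymphoid progenitor markers summed to 31.8 to 57.9, 1127 to 1912 and 2901 to 4135 RPKM in the same order. Mutant MPP4 differed in this makeup, with 381 to 394 RPKM of stem cell markers against 278 to 313 in wild type. Lymphoid markers were at 1127 to 1314 RPKM in mutant MPP4 against 1601 to 1912, so neither pair of ranges overlapped. Erythroid markers ranged from 482 to 2989 RPKM in wild-type MPP4 and from 2241 to 4927 in mutant MPP4. Wild-type HSC replicate 2 stood apart from its group, with 1451 RPKM of neutrophil granule markers (164 and 171 in the other 2) and 5080 of erythroid markers (920 and 1066). Their part in the HSC results was not tested. Without that library 12 members were called between wild-type HSC and MPP4, the same number as with it. An equal count does not say that the genes were the same. Mutant groups were also spread. Erythroid markers ranged from 71.4 to 4934 RPKM in mutant CLP (979 to 1594 in wild type) and from 959 to 3854 in mutant HSC. Neutrophil granule markers ranged from 239 to 2118 RPKM in mutant CLP (310 to 578 in wild type). In MPP4 they ranged from 749 to 2338 in mutants and from 575 to 1110 in wild type. The part of these spreads in the genotype results was not tested.

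Per length, the lumenal folding genes were the most abundant of the 36. Calr, a lectin chaperone, averaged 301 RPKM over the 21 libraries, the oxidoreductase Pdia3 averaged 223 and the disulfide isomerase P4hb averaged 203. The lumenal HSP90 paralog Hsp90b1 averaged 188, and Hspa5, which encodes the BiP chaperone that holds the sensors inactive, averaged 171. Lowest were Trib3 at 8.47 and Eif2ak3 at 6.70 RPKM. All 36 together made up 0.571% to 0.78% of the summed RPKM of a library. The median coefficient of variation within a group was 10.5% over the 36 genes and 11.9% over all genes. Within the list it ran from 4.27% for Derl1 to 34.1% for Ern1.

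The first question was how the genes differ between the populations, taken in the order HSC, MPP4, CLP. In wild type, 12 of the 36 were called between HSC and MPP4, 5 higher and 7 lower, at a limma Benjamini-Hochberg adjusted p under 0.05 over 11496 genes. That is 33.3% of the 36, against 39.3% of all genes, 16.1% higher and 23.3% lower. In mutant mice 9 were called, 3 higher and 6 lower, against 39.1% of all genes, 16% higher and 23.1% lower. In wild type 6 of the 36 were higher in every MPP4 library than in any HSC library (16.7%, against 20.4% of all genes) and 8 were lower (22.2%, against 30.6%). The number of calls was therefore near or under the background, and the size and identity of the changes are what follows. The median difference was 0.07 in wild type and -0.04 in mutants, against -0.06 and -0.05 over all genes. These p-values come from a fit that treats every library as a separate mouse. Libraries of the same genotype numbered alike were taken as the same mouse, and results with that number as a block are given below. Fewer cells of a type and less RNA per cell cannot be told apart in such sorted bulk samples.

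The largest falls from HSC to MPP4 were in the ATF4 and CHOP targets. Trib3, a pseudokinase that dampens ATF4 and AKT signalling, was at 13.9, 15.8 and 33.6 RPKM in wild-type HSC. It was at 3.40, 2.85 and 4.06 in wild-type MPP4. Every HSC library was above every MPP4 library, and HSC replicate 3 was well above the other 2. The log2 difference was -2.22 ± 0.28 (SE, limma, Benjamini-Hochberg adjusted p = 2.99e-06). Mutant HSC held 20.2, 19.5, 21.7 and 19.9 RPKM of Trib3 and mutant MPP4 2.70, 4.45, 3.88 and 5.23. Those 4 HSC libraries lay close together, and the mutant difference was -2.10 ± 0.25 (limma, Benjamini-Hochberg adjusted p = 9.05e-07).

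Ppp1r15a encodes GADD34, the phosphatase subunit that restores translation after stress. It was at 20.9, 18.5 and 24.8 RPKM in wild-type HSC and at 4.93, 2.94 and 3.88 in wild-type MPP4. In mutants it was at 13.8, 18.0, 16.5 and 15.1 in HSC and at 5.80, 9.34, 5.02 and 9.05 in MPP4. HSC and MPP4 did not overlap in either genotype. The difference was -2.20 ± 0.24 in wild type (limma, Benjamini-Hochberg adjusted p = 3.39e-07) and -1.05 ± 0.21 in mutants (adjusted p = 3.62e-04). The test of that gap between genotypes is given with the genotype results.

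Asns, asparagine synthetase, whose promoter window is shown above, was at 34.1, 29.3 and 22.9 RPKM in wild-type HSC. Wild-type MPP4 held 11.4, 9.77 and 9.03 RPKM. Mutant libraries held 27.2, 25.3, 31.8 and 26.4 in HSC and 13.9, 12.6, 15.6 and 12.6 in MPP4. The populations were fully apart in both genotypes, by -1.42 ± 0.16 in wild type (limma, Benjamini-Hochberg adjusted p = 6.10e-07) and -0.97 ± 0.14 in mutants (adjusted p = 1.19e-05).

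Ddit3 itself, the CHOP transcription factor, was at 23.4, 24.4 and 24.9 RPKM in wild-type HSC and at 13.3, 13.4 and 14.5 in MPP4. The 3 values of each group lay close together. The fall was -0.77 ± 0.17 (limma, Benjamini-Hochberg adjusted p = 0.00131). In mutants Ddit3 was at 19.9, 24.5, 20.6 and 21.1 in HSC and 16.1, 16.6, 16.9 and 12.0 in MPP4, a difference of -0.47 ± 0.15 (adjusted p = 0.0177). That mutant call was lost without HSC replicate 2, without MPP4 replicate 4, or in female mice alone.

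The genes upstream in this arm were not called lower. Eif2ak3, the PERK kinase, averaged 7.25 ± 0.208 (SD, n = 3) RPKM in wild-type HSC, 6.48 ± 0.83 in MPP4 and 6.93 ± 0.916 in CLP. Atf4 averaged 45.5 ± 1.46, 51.8 ± 2.46 and 53.6 ± 5.83 RPKM. Neither was called in any of the 6 population comparisons, except that Atf4 was higher in wild-type CLP than HSC once the replicate number was a block (0.23, limma, Benjamini-Hochberg adjusted p = 0.0284). In mutants Eif2ak3 was at 6.98, 7.6, 6.84 and 7.14 RPKM in HSC and at 6.30, 5.55, 6.25 and 6.26 in MPP4, without overlap, and the difference of -0.20 ± 0.12 was not called (limma, Benjamini-Hochberg adjusted p = 0.21). The wild-type group means of Atf4 in MPP4 and CLP were thus above the HSC mean, while the 4 genes above were lower there.

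**Figure D1:**
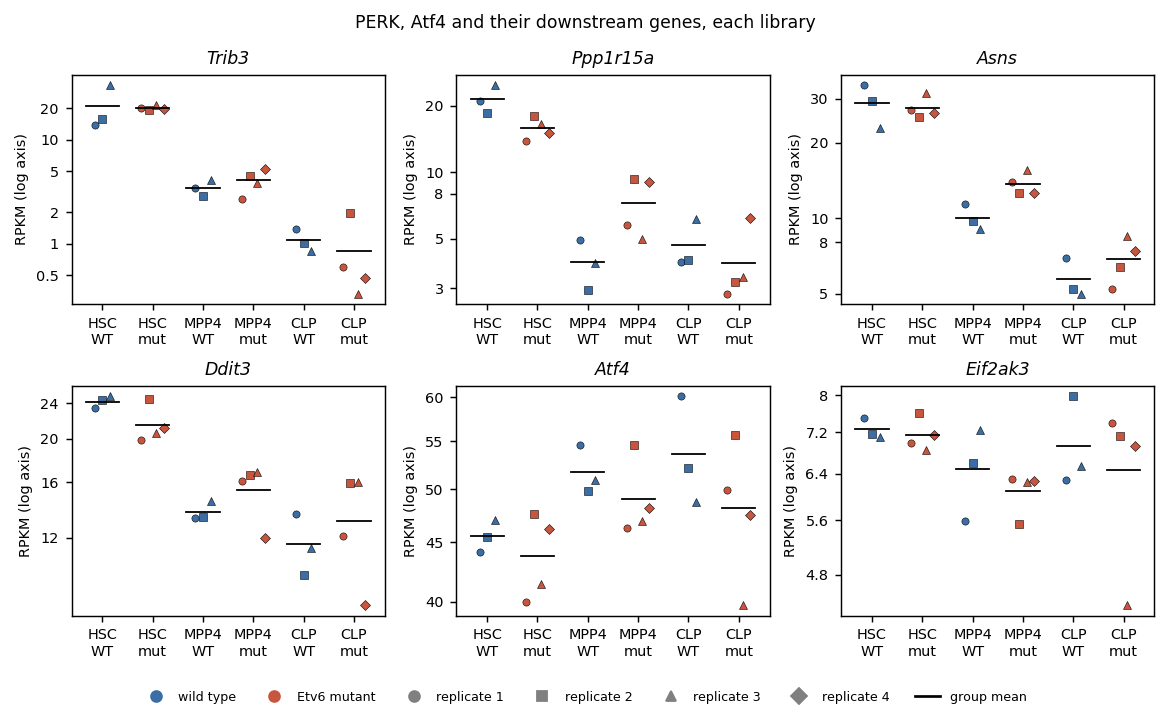
RPKM (log axes, each with its own range) of PERK (Eif2ak3), Atf4 and 4 downstream genes in each library; colour gives the genotype, marker shape the replicate number and black bars the group mean. Trib3, Ppp1r15a, Asns and Ddit3 are highest in HSC of both genotypes, whereas Atf4 and Eif2ak3 stay within 39.7 to 60.1 and 4.40 to 7.97 RPKM.

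From MPP4 to CLP, Trib3 and Asns fell further. In wild type, 5 of the 36 genes were called at this step, 3 higher and 2 lower (13.9%, against 13.1% of all genes, 4.77% higher and 8.38% lower). With the replicate number as a block the count was 9, with 4 higher and 5 lower; all 5 were among them, and Hsp90b1, Calr, Txndc5 and Edem2 were added. Groups did not overlap for 7 genes higher in wild-type CLP (19.4%, against 11.2% of all genes) and 4 lower (11.1%, against 18.8%). In mutants 11 were called, 6 higher and 5 lower (30.6%, against 24.3% of all genes, 7.86% higher and 16.4% lower). The median differences were 0.05 and 0.07, against -0.05 and -0.06 over all genes.

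Trib3 was at 1.39, 1.02 and 0.859 RPKM in wild-type CLP, below every MPP4 library. The difference of -1.09 ± 0.28 (limma, Benjamini-Hochberg adjusted p = 0.0126) was not called without MPP4 replicate 3 (adjusted p = 0.0553), without CLP replicate 3 (0.0506) or after quantile normalization (0.0581). In mutant CLP Trib3 was at 0.600, 1.99, 0.329 and 0.470 RPKM, near the filter's minimum, and it fell by 1.51 ± 0.25 (limma, Benjamini-Hochberg adjusted p = 9.84e-05).

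Asns was at 6.92, 5.21 and 4.98 RPKM in wild-type CLP and at 5.19, 6.37, 8.48 and 7.37 in mutant CLP. Both groups lay under all MPP4 libraries of their genotype. The differences were -0.73 ± 0.16 in wild type (limma, Benjamini-Hochberg adjusted p = 0.00348) and -0.92 ± 0.14 in mutants (adjusted p = 4.31e-05). The wild-type call was lost in female mice alone (adjusted p = 0.0924).

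Ppp1r15a stood apart from these 2 at this step. Wild-type CLP held 3.92, 4.00 and 6.13 RPKM, which overlapped wild-type MPP4, and there was no call. Mutant CLP held 2.82, 3.21, 3.36 and 6.23 RPKM and overlapped mutant MPP4 through replicate 4. The mutant difference was -0.77 ± 0.21 (limma, Benjamini-Hochberg adjusted p = 0.0089), lost after quantile normalization (adjusted p = 0.0508) and in female mice alone (0.114).

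The other genes of the ATF4 and integrated stress response list did not all move as these did. Of its 44 members, 9 rose and 8 fell from wild-type HSC to MPP4, against 16.1% of all genes higher and 23.3% lower. In mutants 8 rose and 8 fell, against 16% and 23.1%. Nupr1, a small stress-induced nuclear protein, averaged 64.3 ± 14.4 (SD, n = 3) RPKM in HSC and 1.30 ± 0.914 in MPP4, a difference of -4.89 ± 0.37 (limma, Benjamini-Hochberg adjusted p = 1.88e-09). The transcription factor Nfil3 went the other way, from 2.04 ± 0.801 to 11.2 ± 3.46 RPKM (2.01 ± 0.31, adjusted p = 3.34e-05). The mitochondrial folate enzyme Mthfd2 rose from 6.33 ± 3.74 to 14.7 ± 1.43 RPKM (1.27 ± 0.31, limma, adjusted p = 0.00239). Pycr1, of proline synthesis, rose from 1.68 ± 0.622 to 4.17 ± 0.380 RPKM (0.98 ± 0.17, limma, adjusted p = 9.60e-05). From wild-type MPP4 to CLP 0 of the 44 rose and 3 fell, against 4.77% and 8.38% of all genes. Vldlr fell by 1.99 ± 0.30, the BH3-only gene Bbc3 by 0.93 ± 0.21 and the translation repressor Eif4ebp1 by 0.67 ± 0.09.

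Immediate early genes respond within minutes to many stimuli. Of 16, 3 were higher and 5 lower in wild-type MPP4 than in HSC, against 16.1% and 23.3% of all genes, with Egr1 at 18.8 ± 11.2 (SD, n = 3) RPKM in HSC and 2.02 ± 0.726 in MPP4. The part of such a response in the Trib3, Ppp1r15a and Ddit3 differences was not tested. Among 26 cytosolic and mitochondrial heat shock genes 4 were higher and 2 lower, against the same shares of all genes, the latter being Dnajb4 (-1.28 ± 0.13) and Bag3 (-1.20 ± 0.18). Bag3 was also the 1 gene of that list called at the CLP step (-0.69 ± 0.18).

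Atf6 was the sensor whose transcript rose at both steps. It was at 9.66, 9.36 and 8.27 RPKM in wild-type HSC, 16.4, 12.9 and 15 in MPP4 and 19.4, 18.4 and 21 in CLP. The 3 populations did not overlap. It rose by 0.64 ± 0.10 (limma, Benjamini-Hochberg adjusted p = 3.81e-05) and then by 0.39 ± 0.10 (adjusted p = 0.0104). The second call was lost with the 2 groups fitted alone (0.0603), without MPP4 replicate 2 (0.0798), without CLP replicate 3 (0.0540) and in female mice alone.

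In mutants Atf6 was at 10.3, 9.24, 9.08 and 10.2 RPKM in HSC, 12.2, 11.9, 11.6 and 12.1 in MPP4 and 22.5, 17.9, 21.2 and 20.8 in CLP. The order was the same and again without overlap. The steps were 0.28 ± 0.09 (limma, Benjamini-Hochberg adjusted p = 0.0147) and 0.73 ± 0.09 (adjusted p = 2.13e-06). Its paralog Atf6b, from the list of sensors and cofactors, rose as well, from 28.4 ± 3.03 (SD, n = 3) to 39.8 ± 2.48 and 49.5 ± 1.81 RPKM in wild type. Those steps were 0.47 ± 0.09 and 0.31 ± 0.09 (limma, Benjamini-Hochberg adjusted p = 3.18e-04 and 0.026).

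Xbp1, the factor spliced by IRE1, was at 77.3, 96.5 and 169 RPKM in wild-type HSC and at 71.0, 57.7 and 81.0 in wild-type MPP4. The ranges overlapped and HSC replicate 3 was far above the other 2. The difference of -0.63 ± 0.23 (limma, Benjamini-Hochberg adjusted p = 0.0306) became -0.31 without that library (adjusted p = 0.244). It was also not called without MPP4 replicate 1 (0.0586) or 2 (0.131), with the groups fitted alone (0.0900) or in female mice alone. In mutants Xbp1 was at 76.8, 121, 101 and 83.3 in HSC and 47.4, 61.4, 62.4 and 49.1 in MPP4. These groups were apart, by -0.77 ± 0.19 (limma, Benjamini-Hochberg adjusted p = 0.00349). These values count all Xbp1 transcripts, and the spliced form was not measured.

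Of the 30 other sensor, processing and cofactor genes, 6 were higher and 2 lower in wild-type MPP4 than in HSC, against 16.1% and 23.3% of all genes. Map3k5, the kinase ASK1 that acts below IRE1, averaged 6.10 ± 1.86 (SD, n = 3) and 15 ± 3.13 RPKM (1.19 ± 0.29, limma, Benjamini-Hochberg adjusted p = 0.00264). Creb3l2, an ATF6-like membrane factor, averaged 11.7 ± 1.43 and 5.52 ± 1.12 RPKM (-0.97 ± 0.23, limma, adjusted p = 0.00222). At the CLP step Atf6b and Bhlha15 were higher and Eif2ak4, the amino acid sensor GCN2, lower (-0.37 ± 0.11, limma, adjusted p = 0.0242). Bhlha15, a transcription factor of secretory cells, reached 5.10 ± 1.06 RPKM from 1.65 ± 0.853 (1.25 ± 0.29, limma, adjusted p = 0.00485).

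**Figure D2:**
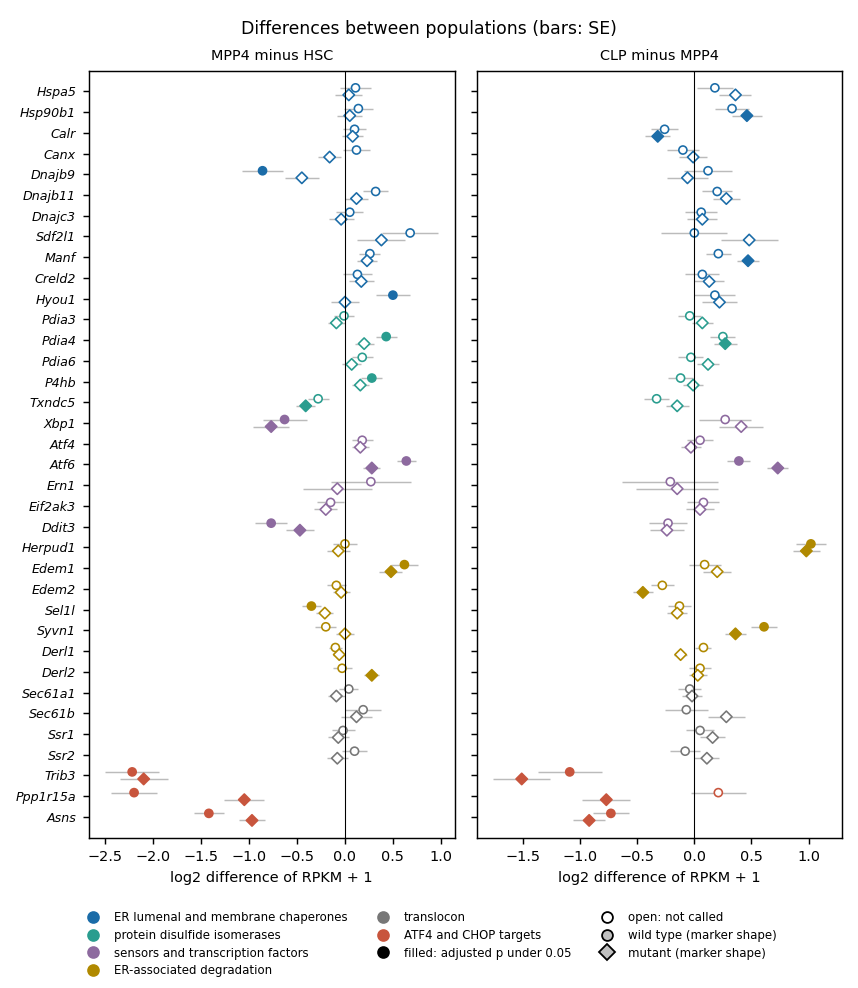
Log2 differences of RPKM + 1 between populations for the 36 genes, ordered and coloured by role; bars are 1 SE, filled symbols were called, circles are wild type and diamonds mutant. Trib3, Ppp1r15a and Asns lie farthest to the left at the first step, and Herpud1 and Atf6 lie to the right at the second.

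Among the genes of ER-associated degradation, Herpud1 had the largest rise in CLP. It scaffolds the ubiquitin ligase complex at the ER membrane. It was at 58.7, 62.5 and 76.7 RPKM in wild-type HSC, 70.0, 57.4 and 69.6 in MPP4 and 112, 136 and 156 in CLP. All CLP libraries were above all others. HSC and MPP4 overlapped, with no call between them. From MPP4 to CLP the difference was 1.02 ± 0.13 (limma, Benjamini-Hochberg adjusted p = 1.76e-05). Mutants gave 58.2, 68.0, 65.5 and 63.7 in HSC, 56.9, 63.2, 64.5 and 59.3 in MPP4 and 111, 129, 147 and 103 in CLP. The CLP libraries were again all above the others (0.98 ± 0.12, limma, Benjamini-Hochberg adjusted p = 1.90e-06).

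Syvn1 encodes HRD1, the ligase of that complex. It was at 11.2, 12.4 and 12.2 RPKM in wild-type MPP4 and at 17.6, 21.4 and 17.3 in CLP, with no overlap (0.61 ± 0.11, limma, Benjamini-Hochberg adjusted p = 5.05e-04). Mutant MPP4 held 11.1, 12.6, 13.3 and 12.5 RPKM and mutant CLP 14.4, 18.6, 17.5 and 14.5 (0.36 ± 0.09, adjusted p = 0.00714). Wild-type HSC, at 13.1, 13.5 and 15 RPKM, lay between. Syvn1 and Herpud1 thus rose together in CLP of both genotypes.

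Sel1l, the adaptor of the same ligase, did not rise with them. It averaged 27.7 ± 2.51 (SD, n = 3) RPKM in wild-type HSC, 21.4 ± 1.04 in MPP4 and 19.5 ± 2.12 in CLP, and fell at the first step by 0.35 ± 0.10 (limma, Benjamini-Hochberg adjusted p = 0.00702). In mutants that step was called only with the replicate number as a block (-0.21, adjusted p = 0.0621 without it and 0.0243 with it).

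The mannosidase-like proteins Edem1 and Edem2, which mark misfolded glycoproteins, went opposite ways. Edem1 was at 10.9, 9.55 and 8.19 RPKM in wild-type HSC and 15.3, 14.8 and 15.3 in MPP4, with no overlap (0.62 ± 0.14, limma, Benjamini-Hochberg adjusted p = 0.00136). Mutant HSC held 8.73, 12.4, 9.41 and 9.64 RPKM of Edem1 and mutant MPP4 15.6, 12.9, 16.5 and 12.6 (0.48 ± 0.12, adjusted p = 0.00303). Edem2 averaged 68.7 ± 3.67 (SD, n = 3), 64.8 ± 7.94 and 53.4 ± 6.46 RPKM through the wild-type populations. From HSC to CLP Edem2 fell by 0.36 ± 0.10 in wild type and by 0.50 ± 0.09 in mutants (limma, Benjamini-Hochberg adjusted p = 0.00491 and 6.00e-05). Derl1 and Derl2, channel proteins of the degradation complex, differed little, with Derl1 between 43.7 and 53.5 RPKM in every library. From HSC to CLP in mutants Derl1 fell by 0.18 ± 0.06 and Derl2 rose by 0.31 ± 0.08 (limma, Benjamini-Hochberg adjusted p = 0.0105 and 0.00363), and neither was called in wild type. Of 34 further genes of ER-associated degradation, 2 were higher and 5 lower in wild-type MPP4 than in HSC, against 16.1% and 23.3% of all genes. The largest falls were in the deubiquitinase Yod1 (-1.06 ± 0.23) and the co-chaperone Dnajb2 (-0.98 ± 0.13). At the CLP step Svip, an inhibitor of this pathway, was the 1 gene called, lower by -0.75 ± 0.13.

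Most lumenal chaperones differed by smaller amounts, and Dnajb9 and Calr were called lower. Dnajb9 is the BiP co-chaperone ERdj4 that represses IRE1. It was at 17.5, 15.9 and 21.8 RPKM in wild-type HSC and at 10.9, 8.36 and 9.85 in MPP4, with no overlap (-0.86 ± 0.21, limma, Benjamini-Hochberg adjusted p = 0.00248). In mutants it was at 10.6, 13.2, 19.1 and 15.2 in HSC and at 7.46, 12.4, 10.7 and 10.4 in MPP4. Those groups overlapped, and the difference of -0.45 was called only with the replicate number as a block (adjusted p = 0.0515 without it and 0.00622 with it). Calr was at 331, 334, 288 and 292 RPKM in mutant MPP4 and at 235, 287, 248 and 228 in mutant CLP, without overlap (-0.32 ± 0.11, limma, Benjamini-Hochberg adjusted p = 0.036). In wild type that step was called only with the replicate number as a block (-0.26, adjusted p = 0.204 without it and 0.0204 with it).

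Between HSC and CLP, the ends of the series, 17 of 36 genes were called in wild type (9 higher, 8 lower; 47.2%, against 51.1% of all genes, 19.4% higher and 31.7% lower). In mutants 21 were called (12 higher, 9 lower; 58.3%, against 57.8%, 21.8% and 36%). The medians were 0.04 and 0.06, against -0.10 and -0.11 over all genes. Hsp90b1 averaged 182 ± 37.1 (SD, n = 3) RPKM in wild-type HSC and 249 ± 2.75 in CLP (0.47 ± 0.15, limma, Benjamini-Hochberg adjusted p = 0.0109). In mutants it averaged 150 ± 24.8 (n = 4) and 213 ± 16.5 (0.51 ± 0.13, adjusted p = 0.00176).

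Over that span Dnajb11, Manf and the isomerase Pdia4 were also called higher in both genotypes. Dnajb9 was called lower in both (-0.73 ± 0.21 and -0.51 ± 0.18, limma, Benjamini-Hochberg adjusted p = 0.00568 and 0.0195, wild type first). Dnajb11, a BiP co-chaperone, averaged 21.3 ± 4.36 (SD, n = 3) RPKM in wild-type HSC and 30.4 ± 0.698 in CLP (0.51 ± 0.13, limma, Benjamini-Hochberg adjusted p = 0.00309). Manf, a secreted ER stress-induced factor that binds BiP, averaged 22.5 ± 1.44 and 31.6 ± 2.68 RPKM (0.47 ± 0.11, limma, adjusted p = 0.0014). Pdia4 averaged 71.6 ± 13.8 and 114 ± 1.56 RPKM (0.68 ± 0.11, limma, adjusted p = 4.14e-05). Hyou1, a lumenal nucleotide exchange factor for BiP, was called in wild type (0.68 ± 0.18, limma, adjusted p = 0.00339) and not in mutants (0.23 ± 0.15, 0.22). Sdf2l1, part of a BiP complex, was called in mutants (0.86 ± 0.25, limma, adjusted p = 0.00561) and in wild type only with the replicate number as a block (0.68, adjusted p = 0.0525 without it and 0.0081 with it). The test of the difference between genotypes called neither (-0.45 ± 0.24 for Hyou1, 0.18 ± 0.38 for Sdf2l1, limma, adjusted p = 1 for both).

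The next members of the mutant steps by size were folding and degradation genes. Hsp90b1 was at 156, 180, 156 and 127 RPKM in mutant MPP4 and at 215, 222, 225 and 189 in mutant CLP, without overlap (0.46 ± 0.13, limma, Benjamini-Hochberg adjusted p = 0.0109). That call was lost after quantile normalization (adjusted p = 0.0737) and without MPP4 replicate 4 (0.0505). Manf was at 19.8, 21.2, 23.8 and 20.9 RPKM in mutant MPP4 and at 25.5, 32, 34.6 and 29.0 in mutant CLP, again apart (0.47 ± 0.10, limma, adjusted p = 8.88e-04). Edem2 was at 66.5, 70.8, 65.6 and 68.8 in mutant MPP4 and at 44.2, 46.2, 55.0 and 52.7 in mutant CLP, apart in the other direction (-0.45 ± 0.09, limma, adjusted p = 5.49e-04).

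At the first mutant step Txndc5, a lumenal isomerase, was at 73.2, 65.3, 55.1 and 56.7 RPKM in HSC and at 51.5, 44.0, 45.0 and 45.8 in MPP4, without overlap (-0.41 ± 0.10, limma, Benjamini-Hochberg adjusted p = 0.00222). Derl2 was at 9.07, 9.52, 10.2 and 10.8 in HSC and at 13.3, 13.1, 12.1 and 10.6 in MPP4, where replicate 4 overlapped (0.28 ± 0.08, limma, adjusted p = 0.0119). Both calls were lost in female mice alone (adjusted p = 0.0518 and 0.131).

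The block on the replicate number added calls in most steps and removed none. From wild-type HSC to MPP4 it added Dnajb11 (0.32), Sdf2l1 (0.68), Manf (0.26) and Txndc5 (-0.28). From mutant HSC to MPP4 it added Manf (0.23), beside Dnajb9 and Sel1l given above. From mutant MPP4 to CLP it added Hspa5 (0.36), Dnajb11 (0.28), Sdf2l1 (0.48), Xbp1 (0.41) and Sec61b (0.28). Over the whole span it added Xbp1 in both genotypes (-0.37 in wild type, -0.36 in mutants).

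Hspa5, the BiP gene, averaged 177 ± 21.1 (SD, n = 3), 190 ± 8.10 and 215 ± 21.2 RPKM in wild-type HSC, MPP4 and CLP, with no call at any step. The 3 wild-type CLP libraries, at 198 to 239 RPKM, were all above the 3 HSC libraries, at 154 to 196. Over that span it was called only with the replicate number as a block (0.28, adjusted p = 0.147 without it and 0.0182 with it). In mutants it averaged 138 ± 23.8 (n = 4), 141 ± 19.0 and 183 ± 37.5 RPKM and was called from HSC to CLP (0.40 ± 0.14, limma, Benjamini-Hochberg adjusted p = 0.0174). The test of the difference between genotypes over that span did not call it (0.12 ± 0.21, limma, adjusted p = 1). The lectin chaperones Calr and Canx, the co-chaperone Dnajc3 and Creld2 were not called between HSC and CLP in either genotype, though with the block Calr (-0.24) and Creld2 (0.30) were called in mutants.

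Disulfide isomerases did not move as a family. Txndc5 fell over the span, from 65.0 ± 9.21 (SD, n = 3) RPKM in wild-type HSC to 42.0 ± 2.20 in CLP (-0.61 ± 0.11, limma, Benjamini-Hochberg adjusted p = 1.45e-04), while Pdia4 rose. P4hb rose from wild-type HSC to MPP4 by 0.28 ± 0.11 (adjusted p = 0.045) and was not called in mutants. Pdia3 and Pdia6 were not called at any step, although over the whole span Pdia6 was called with the replicate block in mutants (0.19, adjusted p = 0.0215). The translocon genes Sec61a1, Ssr1 and Ssr2 were not called between any populations. Sec61b was called from HSC to CLP in mutants (0.39 ± 0.16, limma, adjusted p = 0.0474), and from MPP4 to CLP in mutants with the replicate block (0.28, adjusted p = 0.0263).

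Of 53 further lectin, oxidoreductase and glycosylation genes, 5 were higher and 13 lower in wild-type MPP4 than in HSC, against 16.1% and 23.3% of all genes. The cyclophilin Ppic averaged 61.3 ± 7.08 (SD, n = 3) and 11.8 ± 1.66 RPKM (-2.29 ± 0.24, limma, Benjamini-Hochberg adjusted p = 2.12e-07). Erp27, a non-catalytic isomerase-like protein, averaged 5.62 ± 1.96 and 0.455 ± 0.197 RPKM (-2.15 ± 0.19, limma, adjusted p = 1.44e-08). Fkbp11, a membrane-bound prolyl isomerase of secretory cells, averaged 20.3 ± 1.23 and 5.89 ± 1.30 RPKM (-1.65 ± 0.21, limma, adjusted p = 2.53e-06). Among 33 translocation and signal recognition genes 4 were higher and 3 lower. Among 39 ER to Golgi transport genes 5 were higher and 4 lower, and the shares of all genes are the same for both lists. At the CLP step in wild type the first list had 1 gene higher, the glycosyltransferase subunit Stt3b (0.45 ± 0.09), and 4 lower: Ppic, Fkbp11, Rcn1 and Mcfd2. Srp68 and Emc3 were higher in the second, and the COPII gene Sec24d in the third, with 0 lower in either, against 4.77% of all genes higher and 8.38% lower.

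The 8 genes with an ERSE match had a median of 0.18 from wild-type HSC to CLP, with 2 higher and 0 lower, against -0.02 for the 22 genes without one, with 4 higher and 8 lower. Of all genes 19.4% were higher and 31.7% lower over that span. In mutants the medians were 0.24 and -0.08. Hsp90b1 and Syvn1 were the 2 called in wild type. Of the 8 genes 6 are chaperones, while the 22 include all 3 ATF4 and CHOP targets, so motif and role cannot be told apart.

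The second question was what the Etv6 mutation changed within each population. None of the 36 genes was called in HSC, MPP4 or CLP by limma, against 0.0522%, 0.217% and 0% of all genes. At an unadjusted p under 0.05 there were 4, 14 and 3 of the 36, against 512, 936 and 507 of 11496 genes. By direction alone, 29 of 36 genes in HSC, 26 in MPP4 and 29 in CLP were lower in mutants. Of all genes 53.7%, 55.8% and 51.3% were higher. The median difference of the 36 was -0.09, -0.18 and -0.16, against 0.01, 0.02 and 0.00 over all genes. Many of the 36 moved together in single libraries, as given below, and the populations were taken to share mice. Neither genes nor populations are therefore independent, and these counts of direction were not tested.

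By role, the 11 chaperones had medians of -0.20, -0.25 and -0.21 in HSC, MPP4 and CLP, and the 5 disulfide isomerases -0.20, -0.28 and -0.21, with all 5 isomerases lower in mutants in each population. The 4 translocon genes had medians of -0.10, -0.24 and -0.06, and the 6 sensors and transcription factors -0.08, -0.18 and -0.13. The 7 genes of ER-associated degradation had medians of -0.04, 0.05 and -0.10, and the 3 ATF4 and CHOP targets -0.04, 0.41 and -0.24. As a share of summed RPKM, the 16 chaperones and isomerases made up 0.474% to 0.542% in wild-type MPP4 and 0.383% to 0.469% in mutants. In CLP they made up 0.522% to 0.533% in wild type and 0.408% to 0.486% in mutants, so neither pair of ranges overlapped. HSC overlapped, at 0.38% to 0.532% and 0.376% to 0.467%, with wild-type replicate 3 at 0.38% and the other 2 at 0.524% and 0.532%.

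Mutant and wild-type libraries did not overlap for a few genes. In HSC 2 of 36 were fully lower in mutants (5.56%, against 1.9% of all genes) and 0 fully higher (3.36%). In MPP4 10 were fully lower (27.8%, against 3.41%) and 2 fully higher (5.56%, against 6.68%). In CLP 5 were fully lower (13.9%, against 2.18%) and 1 fully higher (2.78%, against 1.94%). The 10 in MPP4 were Pdia3, Pdia4, Pdia6, P4hb, Hspa5, Hsp90b1, Sdf2l1, Manf, Sec61a1 and Atf6, mostly abundant lumenal proteins. Plasmacytoid dendritic cell markers, of a secretory cell type, summed to 220 to 266 RPKM in wild-type MPP4 and 171 to 194 in mutants, with no overlap. In CLP they overlapped, at 585 to 875 and 626 to 778 RPKM. Plasma cell markers overlapped in both. B-lineage markers summed to 409 to 547 RPKM in wild-type CLP and 223 to 493 in mutant CLP, with overlap. All 8 were lower in mutant CLP, with a median difference of -0.56 and 0 called. The part of the marker shifts in the MPP4 and CLP differences was not tested.

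Pdia6, an isomerase that acts on IRE1 and PERK and whose promoter holds an ERSE, was among the 4 genes with the smallest p in every population. It was at 119, 126 and 102 RPKM in wild-type HSC and 98.4, 106, 92.9 and 84.8 in mutants, with overlap. In MPP4 it was at 140, 133 and 120 against 109, 115, 92.7 and 86.0, and in CLP at 131, 128 and 123 against 101, 119, 118 and 97.7. Neither of the latter overlapped. The differences were -0.27, -0.38 ± 0.11 and -0.23 (limma, Benjamini-Hochberg adjusted p = 0.977, 0.203 and 1). With library weights the MPP4 difference was called (-0.41, adjusted p = 0.0310).

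Manf was at 21.8, 24.1 and 21.5 RPKM in wild-type HSC and 15.7, 20.7, 18.8 and 17.4 in mutants. In MPP4 it was at 28.4, 25.2 and 27.7 against 19.8, 21.2, 23.8 and 20.9. Mutants were below wild type throughout both. The differences were -0.30 ± 0.10 and -0.32 (limma, Benjamini-Hochberg adjusted p = 0.860 and 0.296). In CLP, at 31.2, 29.1 and 34.4 against 25.5, 32.0, 34.6 and 29.0, the groups overlapped.

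Hspa5 was at 181, 196 and 154 RPKM in wild-type HSC and 122, 154, 162 and 114 in mutants, a difference of -0.37 with overlap (limma, Benjamini-Hochberg adjusted p = 0.977). In MPP4 it was at 198, 182 and 188 against 133, 163, 149 and 119, without overlap. In CLP it was at 198, 209 and 239 against 148, 215, 217 and 153. Mutant replicates 1 and 4 were the 2 lowest in all 3 populations.

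P4hb was at 278, 229 and 226 RPKM in wild-type MPP4 and at 193, 201, 200 and 187 in mutants, without overlap (-0.32, limma, Benjamini-Hochberg adjusted p = 0.288). In CLP it was at 250, 194 and 232 against 185, 197, 210 and 185, with overlap (-0.21, adjusted p = 1). Pdia4 in CLP was at 112, 114 and 115 against 86.3, 108, 107 and 88.0, fully apart (-0.23, limma, adjusted p = 1). Pdia3 in HSC was at 263, 265 and 212 against 214, 236, 204 and 198, with overlap (-0.21, limma, adjusted p = 1). Derl1 in CLP was at 46.7, 51.9 and 49.3 against 44.0, 44.1, 43.7 and 44.8, tightly grouped and fully apart (-0.15, limma, adjusted p = 0.993).

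**Figure D3:**
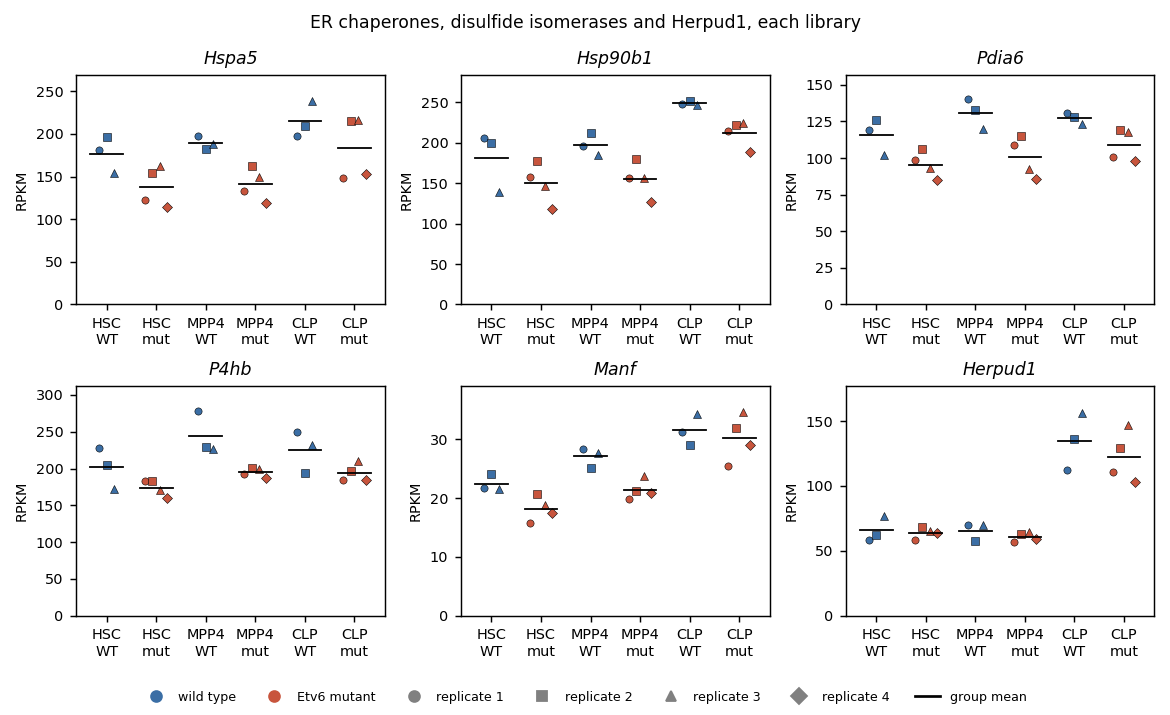
RPKM of Hspa5, Hsp90b1, Pdia6, P4hb, Manf and Herpud1 in each library (linear axes from 0); colour gives the genotype, marker shape the replicate number and black bars the group mean. Mutant points lie under wild type for the first 5 genes in MPP4, and Herpud1 is set apart by CLP, at 103 to 156 RPKM.

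Ppp1r15a went the other way in MPP4. As given above, mutant MPP4 held 5.02 to 9.34 RPKM and wild-type MPP4 2.94 to 4.93, while mutant HSC at 13.8 to 18.0 lay under wild-type HSC at 18.5 to 24.8. Groups were apart in both populations, in opposite directions. The MPP4 difference was 0.74 ± 0.22 (limma, unadjusted p = 0.00352, Benjamini-Hochberg adjusted p = 0.249), and with library weights it was called (0.80, adjusted p = 0.0434). In female mice alone it was 0.47 (limma, adjusted p = 0.886). The genotype difference in MPP4 minus that in HSC was 1.14 ± 0.31 (limma, unadjusted p = 0.00166, Benjamini-Hochberg adjusted p = 0.680). From MPP4 to CLP it was -0.97 (adjusted p = 0.998). None of the 36 genes was called in the 3 such comparisons of genotype effects, against 0%, 0% and 0.0087% of all genes, and at an unadjusted p under 0.05 there were 5 for MPP4 minus HSC, 3 for CLP minus MPP4 and 1 for CLP minus HSC, against 436, 442 and 420 of 11496 genes.

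Asns was likewise higher in every mutant MPP4 library than in every wild-type one (12.6 to 15.6 against 9.03 to 11.4 RPKM). The 44 ATF4 and integrated stress response genes had a median of -0.06 in MPP4, with 15 higher in mutants. None of the 8 further pathway lists held a called gene in any of the 3 genotype comparisons, and their medians lay between -0.09 and 0.15. The ERSE genes had medians of -0.17, -0.24 and -0.22 in HSC, MPP4 and CLP, against -0.09, -0.09 and -0.13 for the 22 genes without a match. All 8 were lower in mutant CLP, as were 16 of the 22. Here too motif and role cannot be told apart.

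**Figure D4:**
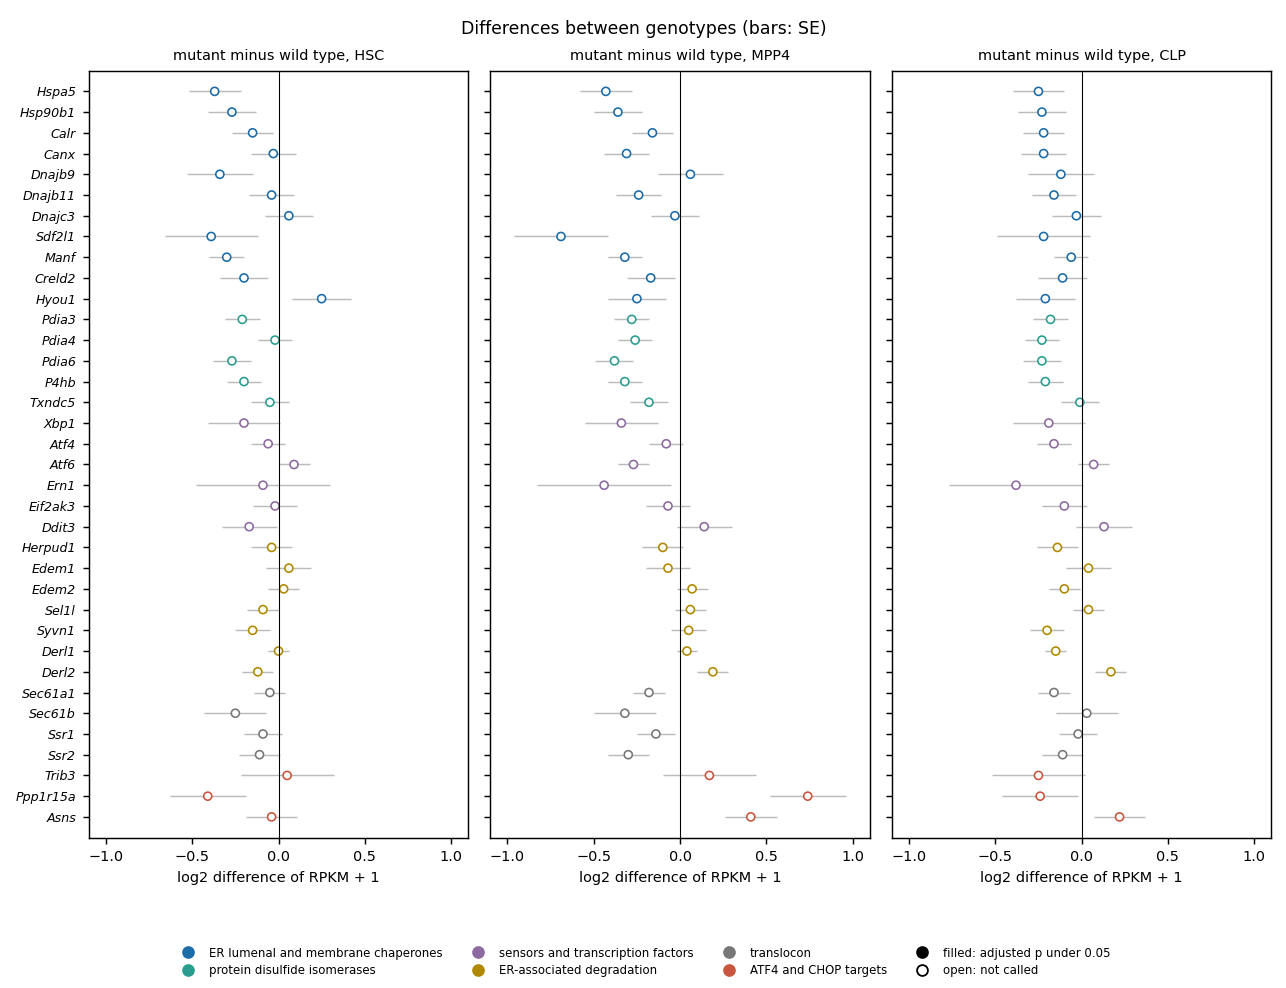
Log2 differences of RPKM + 1, mutant minus wild type, for the 36 genes in each population, ordered and coloured by role; bars are 1 SE and open symbols were not called. No symbol is filled, and most chaperones and isomerases lie left of 0, with Ppp1r15a in MPP4 the farthest right at 0.74.

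Ern1, the gene of the IRE1 sensor, varied most within groups, and the following was chosen after its values were seen. The 6 libraries numbered 2, all from male mice, held 13.7 to 18.8 RPKM and the other 15 libraries 22.4 to 51.2 (median 31.4). Library 2 was the lowest in each of the 6 groups. That held for 101 of 11496 genes (0.879%), and of the 36 for Ern1 alone. In a fit with sex and age terms, the male minus female difference of Ern1 was -1.03, the 33rd largest of 11496 genes. Male mice carry the number 2 in every group, so sex and that number cannot be told apart. As the number was taken as the mouse within a genotype, the 6 libraries numbered 2 stand for a single wild-type and a single mutant mouse.

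This spread bears on the genotype values of Ern1. Wild-type MPP4 was at 51.2, 17.9 and 44.3 RPKM and mutant MPP4 at 24.2, 18.8, 31.4 and 27.7. Wild-type CLP was at 48.0, 13.7 and 39.2 and mutant CLP at 30.0, 15.2, 22.4 and 24.9. The female wild-type libraries were above all mutant ones in both populations, and in HSC (39.4 and 36.5 against 30.3, 32.2 and 28.8 in female mutants). They are wild-type replicates 1 and 3 each time, taken as the same mice, so the populations are not independent repeats. The share of all genes that separate in this way was not counted. Over all libraries the differences were -0.09, -0.44 and -0.38 in HSC, MPP4 and CLP. In female mice alone, a setting chosen after seeing the data, they were -0.31, -0.76 and -0.74 (limma, Benjamini-Hochberg adjusted p = 0.999, 0.0663 and 0.104).

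**Figure D5:**
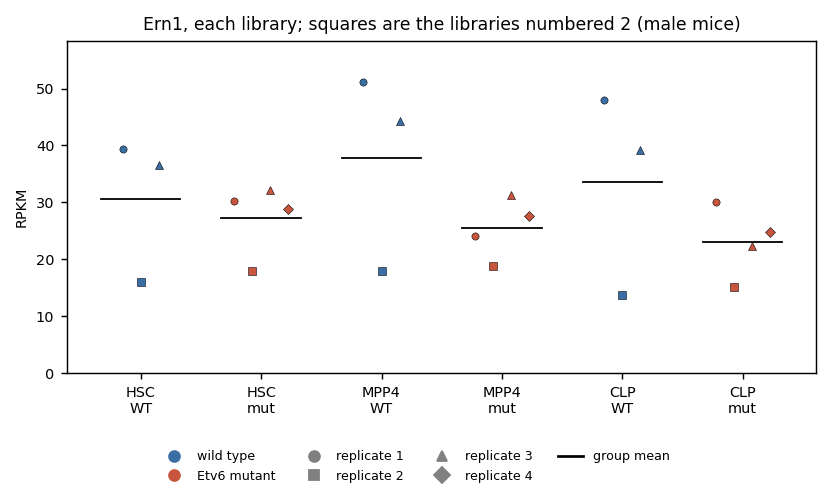
RPKM of Ern1 in each library (linear axis from 0); colour gives the genotype, marker shape the replicate number and black bars the group mean. The squares, male mice, lie at 13.7 to 18.8 RPKM under all other points, and wild-type female libraries are the highest of each population.

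Single libraries also moved many of the 36 genes at once. Wild-type HSC replicate 3 was the lowest of its 3 for 24 of the 36 genes, against 37.8% of all genes. It was the only library of its group labelled 10 weeks old, so age and replicate cannot be told apart there. Wild-type MPP4 replicate 1 was the highest of its 3 for 24, against 32.4%. Mutant replicate 4 was the lowest of its 4 for 16, 17 and 13 genes in HSC, MPP4 and CLP, against 19.6%, 18.5% and 17.6% of all genes. Mutant replicate 2 was the highest for 18, 17 and 12, against 21.1%, 23% and 20.2%. Sdf2l1 and Calr were highest in library 2 in all 6 groups, as were 24 genes of 11496 (0.209%). Libraries numbered 2 are all male, so here and for mutant replicate 2 above, sex and number cannot be told apart. Sdf2l1 was at 51.7, 67.6 and 59.5 RPKM in the wild-type libraries numbered 2 and at 42.1, 41.4 and 63.5 in the mutant ones, in the order HSC, MPP4, CLP.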

How the data were processed

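The authors deposited 1 table of RPKM values per gene, made from reads aligned with STAR to mm10, per the submitters' processing notes. Per the labels' protocols, sorted cells were lysed, RNA was purified and SMART-seq v4 and NexteraXT libraries were made. The counting tool, its treatment of shared or antisense reads and the annotation are not stated in the labels or notes, and such reads could shift paralogs or overlapping genes. Whole reads could not be recovered, so no depth and no counting interval can be stated. A spreadsheet had turned 16 symbols into dates, which were restored through Entrez identifiers, and 11619 identifiers matched RefSeq GRCm38.p6. No pair of libraries was identical.

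RPKM was taken to log2(RPKM + 1) after a filter of 1 RPKM in 3 libraries. All 21 libraries were fitted together with limma 3.58.1 in R 4.3.3, as 6 group means with a trended prior variance, and contrasts were adjusted by Benjamini-Hochberg over 11496 genes. Calls are at an adjusted p under 0.05, and every p is two-sided. The fit was tested on simulated data with independent noise in each library, so that test does not cover libraries that share a number. Genotype groups were not blocked. The design text counts 3 wild-type and 4 mutant mice, so the number was taken as the mouse across populations. Deviations from group means correlated at 0.094 to 0.481 between same-numbered libraries of 1 genotype, above 0.1 in 19 of 21 pairs, and above 0.1 in 7 of 54 pairs of different numbers. Between genotypes within a population, same-numbered libraries, which are different mice, were above 0.1 in 5 of 9 pairs (median 0.145). Pairs of different numbers there were above 0.1 in 7 of 27 (median -0.057). The correlation was thus not specific to the mouse, and what else the number carries was not tested. Mutant number 4 is labelled 12 weeks old in HSC and MPP4 but 10 weeks in CLP, so for it this pairing is unsure.

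The members and lists were chosen with earlier results of these data known. Values in every library are given for up to 8 called members per population step with the largest difference, and for the 4 members with the smallest p per genotype comparison. Up to 4 called genes per pathway list are named. Alternatives were pseudocounts of 0.1 and 0.5, no filter, a mean of at least 5 RPKM, quantile and median-ratio scaling, groups fitted alone, library weights, sex and age terms, the replicate block and leaving out each library, with female mice alone added after the data were seen.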

Additional observations from a re-analysis of the deposited data

Results flagged for a closer look

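In groups of 4 libraries, 3 values lay far from the other 3 by Dixon's criterion, of 108 groups tested, where chance gives about 1 in 20. Eif2ak3 was at 5.55 RPKM in mutant MPP4 replicate 2, against 6.25 to 6.30 in the other 3. Eif2ak3 was at 4.40 RPKM in mutant CLP replicate 3, against 6.92 to 7.39. Ddit3 was at 12.0 RPKM in mutant MPP4 replicate 4, against 16.1 to 16.9, and without that library its fall from mutant HSC to MPP4 was not called.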

How the results depend on the processing

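The count of genes called between genotypes stayed at 0 in every alternative in HSC and CLP and when any 1 library was left out. In MPP4 it was 2 with library weights. The count from wild-type MPP4 to CLP was 5, 3 in female mice alone, and 3 to 6 when 1 library was left out, the lowest without CLP replicate 3. The count from mutant MPP4 to CLP was 11, and 7 after quantile normalization. The median from wild-type HSC to MPP4 was 0.07, and -0.04 to 0.13 with 1 library left out, the lowest without HSC replicate 3. From wild-type HSC to CLP it was 0.04, 0.18 in female mice alone, and -0.04 to 0.17 with 1 library left out, the highest without HSC replicate 1. The genotype difference of Ern1 in HSC (-0.09) reversed to 0.29 with library weights, and to 0.13, 0.08 and 0.09 without wild-type replicate 1, wild-type replicate 3 and mutant replicate 2. The cause of these shifts was not tested. With the replicate number as a block (the mouse, for populations) 24 calls were gained and 0 lost, and the count from wild-type MPP4 to CLP became 9. With the block the Ern1 genotype differences were -0.14, -0.49 and -0.43. Over 60 named values, alternatives kept the direction and the side of the threshold 1055 times, lost the call 22 times, gained it 2 times and reversed 4 times. RPKM alone gives no read depth, so low values such as Trib3 in CLP carry an unknown counting error.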

Other observations

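Genes of specialised secretory cells lay beside the folding genes and were chosen after their values were seen. Mzb1, an ER co-chaperone of plasma cells and plasmacytoid dendritic cells, averaged 1.31 ± 0.371 (SD, n = 3) RPKM in wild-type HSC, 3.88 ± 2.07 in MPP4 and 38.9 ± 7.24 in CLP. In mutants Mzb1 averaged 0.221 ± 0.176 (n = 4), 1.47 ± 0.567 and 19.8 ± 16.0 RPKM. The genotype differences of Mzb1 were -0.92, -0.91 and -1.21 (limma, Benjamini-Hochberg adjusted p = 0.977, 0.513 and 0.934), so none was called. Bhlha15 averaged 1.65 ± 0.853 RPKM in wild-type MPP4 and 0.268 ± 0.167 in mutants, and 5.10 ± 1.06 and 2.33 ± 1.11 in CLP. Its genotype differences there were -1.01 and -0.91 (limma, adjusted p = 0.165 and 0.866), again not called.

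Some genes of the further lists turned direction between the steps, again chosen after their values were seen. The COPII coat gene Sec24d averaged 15.2 ± 4.40 (SD, n = 3), 7.80 ± 3.41 and 15.6 ± 5.98 RPKM in wild-type HSC, MPP4 and CLP, falling by 0.92 and then rising by 0.92 (limma, Benjamini-Hochberg adjusted p = 0.0112 and 0.0292). In mutants it averaged 10.9 ± 1.20 (n = 4), 6.04 ± 1.18 and 16.3 ± 2.92 RPKM, with both steps called (adjusted p = 0.0149 and 3.42e-04). Vldlr, a lipoprotein receptor induced by ATF4, averaged 4.06 ± 0.461, 7.80 ± 2.66 and 1.21 ± 0.633 RPKM in wild type and 2.69 ± 0.551, 13.6 ± 2.91 and 1.61 ± 1.38 in mutants. Its rise into MPP4 was called in mutants (1.97 ± 0.26, limma, adjusted p = 5.18e-06) and not in wild type (0.76 ± 0.30, adjusted p = 0.053), and the test of the difference between genotypes gave 1.20 ± 0.40 (unadjusted p = 0.00734, adjusted p = 1).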
